A study of Mus musculus with 6 samples.

Results

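The 9 genes described here make fatty acids from acetyl-CoA or steer the genes that do so, and they were taken by name from 22942 mouse genes with a measured transcript. They are Acly and Acss2, which supply acetyl-CoA, Me1, which supplies NADPH, Acaca, Acacb and Fasn, which build the chain, Thrsp, a regulatory protein, and Srebf1 and Mlxipl, the transcription factors of the pathway. Where a gene had several RefSeq transcripts, the one with the highest mean value over the 6 libraries stood for it, which concerned Acly and Me1 with 2 transcripts each. Values are RPKM, the reads on a transcript scaled by its length and by the reads of the library. All 9 genes passed the filter on low values, at least 0.1 RPKM in at least 3 libraries, as did 13829 genes in all.

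The series asked which genes LSD1, a histone demethylase, regulates while brown fat cells form. One group was given 611 (Cpd A), an LSD1 inhibitor, at 4 uM and the other the solvent DMSO, with 3 libraries each, which the design text calls biological triplicates. Both groups were C3H-10T1/2 cells, a mouse mesenchymal line, taken on day 6 of brown adipocyte induction, and both carried the same cocktail. For the first 72 h it held indomethacin (125 uM), isobutylmethylxanthine (0.5 mM) and dexamethasone (1 uM), and throughout it held rosiglitazone (1 uM), insulin (20 nM), T3 (1 nM) and serum (10%). One label places the start of treatment 12 h after seeding and 48 h before induction, while another places it at seeding. Insulin, T3 and rosiglitazone each act on fat cell genes by themselves, so every value here was measured under that stimulation. P-values measure the spread between these 3 cultures a group. The inhibitor acts on a protein, so no transcript checks the labels.

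De novo synthesis runs in the cytosol. Citrate leaves the mitochondrion and ATP citrate lyase (Acly) splits it to acetyl-CoA. Acetyl-CoA carboxylase turns this into malonyl-CoA, and fatty acid synthase (Fasn) strings malonyl-CoA into palmitate with NADPH as the reductant. SREBP-1 (Srebf1) answers to insulin and ChREBP (Mlxipl) to glucose, and both raise the enzymes. Brown fat runs this pathway alongside fatty acid oxidation.

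The regulatory gene Thrsp fell 3.54-fold with 611, and Acss2, Me1, Acacb, Srebf1 and Mlxipl fell by 1.31-fold to 1.48-fold. Acly and Acaca fell by 1.13-fold and 1.18-fold, and Fasn, at a ratio of means of 1.14-fold lower, did not pass the test with group as the only term. Of the 9 genes 8 were lower with 611 and 0 higher in limma at a Benjamini-Hochberg adjusted p below 0.05. Over all genes tested, 17.7% were called lower, 41.6% higher and 59.4% in either direction. In 8 of the 9 genes every 611 library lay below every DMSO library, as in 20.4% of all genes tested, while 45.8% of them lay apart in the other direction. The median log2 fold change of the 9 genes was -0.38, against 0.10 for all genes tested, both on the log2(RPKM + 1) scale. Median-of-ratios scaling, which brought the median of all genes to -0.00, gave 9 lower and a median of -0.53, with 28.6% of all genes called lower and 28.5% higher. Without scaling 70.1% of all calls were higher, and with it 49.9%.

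The depth of the libraries, estimated from the step that 1 read makes in the low values, was 40816300, 41182600 and 40890900 reads or read pairs in 611 replicates 1, 2 and 3, against 38843900, 39728700 and 39848200 in DMSO replicates 1, 2 and 3. Within groups the log values of 2 libraries correlated at 0.9965 to 0.997 across genes and between groups at 0.9721 to 0.9791, and genes are not independent replicates. Of 10 adipocyte markers 10 were lower with 611 (Fabp4 not under quantile normalization), and their summed level was 15176 to 16755 RPKM in the 611 libraries, against 29224 to 30424 in the DMSO libraries. Of 10 progenitor or fibroblast markers 9 were higher, with sums of 1691 to 1853 RPKM in 611 libraries, against 790.5 to 863 in DMSO libraries, and of 6 markers of dividing cells 6 were higher, with sums of 192 to 219.6 RPKM in 611 libraries, against 92.7 to 99.3 in DMSO libraries. Of the 10 brown adipocyte markers 7 could be tested, of which 4 fell and 1, Ebf2, rose (not after median-of-ratios scaling). Their sums were 91.0 to 97.9 RPKM in 611 libraries, against 168 to 193 in DMSO libraries. Most of the 611 sums was Pdk4, which was not called (71.9 to 80.7 RPKM with 611, against 77.4 to 85.6 with DMSO), while Cidea and Cox8b fell 6.55-fold and 8.56-fold (limma Benjamini-Hochberg adjusted p = 1.7e-06 and 9.76e-07). Ucp1, which uncouples respiration in brown fat, was listed at 0 in each library, and so was Hmgcs1, which cells need for sterols, so a listed 0 here and below can be a failed estimate. Of the tested smooth muscle markers 2 of 4 were higher (sums of 67.1 to 76.3 RPKM with 611, against 31.3 to 32.7 with DMSO). Of the tested osteoblast or chondrocyte markers 3 of 4 were higher and 1 lower (sums of 29.3 to 30.9 RPKM with 611, against 13.2 to 13.8 with DMSO). Sums of the macrophage or blood markers stayed below 0.1 RPKM in each library, with Ptprc and Itgam listed at 0, and of the endothelial markers Cdh5 and Kdr were listed at 0 and Tek, the 1 that could be tested, was higher (sums of 0.279 to 0.323 RPKM with 611, against 0.0875 to 0.232 with DMSO). The part of these marker changes in the values below was not tested. In bulk RNA, fewer fat cells and less RNA per fat cell cannot be told apart.

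**Figure D1:**
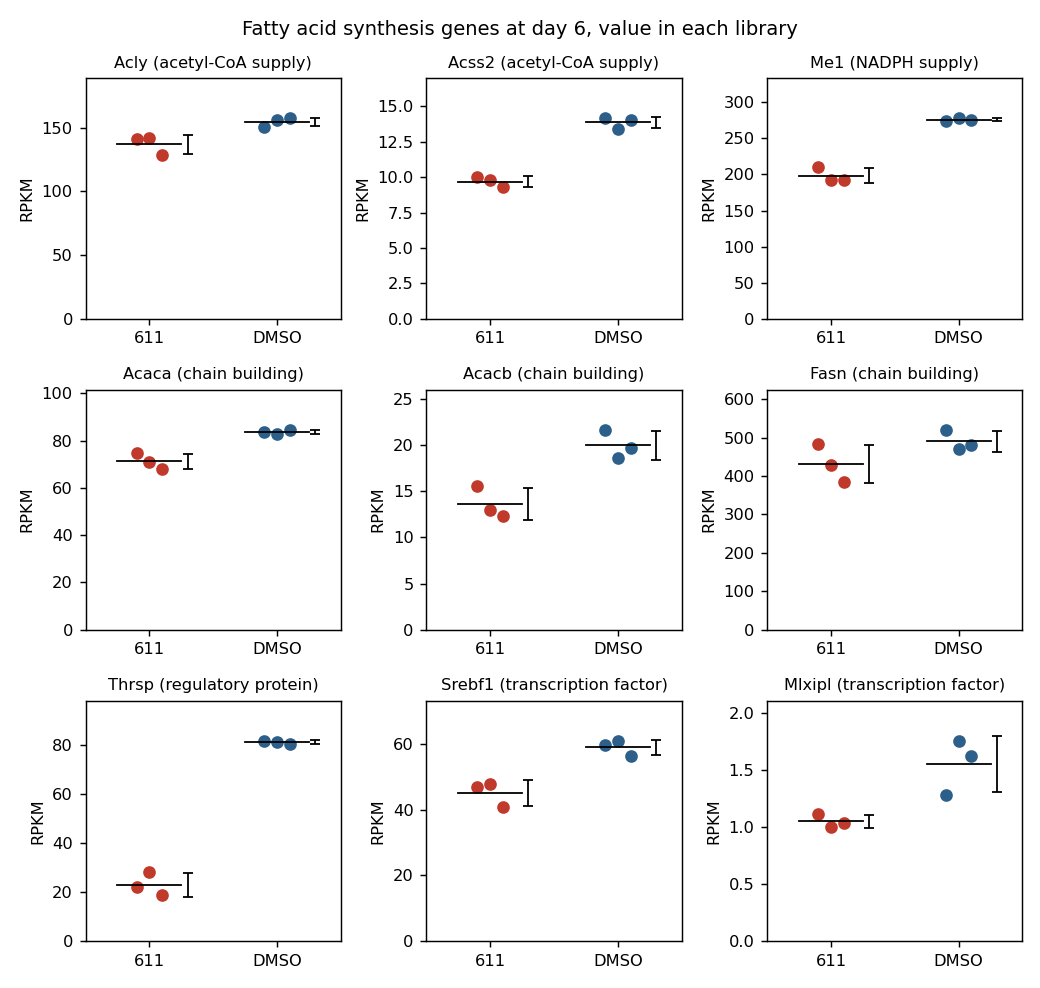
RPKM of each of the 9 genes in the 3 libraries with 611 (left) and the 3 with DMSO (right), with a line at the mean and a bar of 1 SD on each side. The groups overlapped for Fasn, where the highest 611 library (483 RPKM) lay above the lowest DMSO library (470.0 RPKM), and were apart for the other 8 genes.

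Both genes that supply acetyl-CoA were lower with 611. Acly, which makes it from citrate, was at 141, 142 and 128 RPKM in 611 replicates 1, 2 and 3, against 151, 156 and 157 in DMSO replicates 1, 2 and 3. All 611 libraries lay below all DMSO libraries, by little. The log2 fold change was -0.17 ± 0.05 (SE), 1.13-fold lower by the ratio of means (limma Benjamini-Hochberg adjusted p = 0.0104), and the call ended under quantile normalization (log2 fold change -0.03, limma Benjamini-Hochberg adjusted p = 0.607). Acss2, which makes acetyl-CoA from acetate in cytosol and nucleus, was at 9.98, 9.80 and 9.28 RPKM in the 611 libraries, against 14.1, 13.4 and 14.0 in the DMSO libraries. The 2 groups were tight and far apart, 1.43-fold lower with 611 (log2 fold change -0.48 ± 0.05, limma Benjamini-Hochberg adjusted p = 3.5e-05). Within a library, Acss2 over Acly was 0.0708, 0.0691 and 0.0723 with 611, against 0.0937, 0.0862 and 0.0892 with DMSO. The ratio was lower in every 611 library, by a factor of 1.27 (exact two-sided permutation test p = 0.10, the smallest that 3 against 3 allow).

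Me1, the cytosolic malic enzyme that yields NADPH, stood at 210.0, 192 and 193 RPKM in the 611 libraries, against 274, 278 and 276 in the DMSO libraries. It was the second most abundant of the 9 genes in both groups and fell 1.39-fold with 611 (log2 fold change -0.47 ± 0.04, limma Benjamini-Hochberg adjusted p = 2.48e-05). Its 2 transcripts, with means of 237 and 228 RPKM over all libraries, rest on shared reads and were not summed.

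Of the 3 genes that build the chain, both carboxylase genes were called lower. Acaca, the cytosolic acetyl-CoA carboxylase whose malonyl-CoA feeds synthesis, was at 74.6, 70.8 and 68.0 RPKM in 611 libraries, against 83.5, 82.7 and 84.6 in DMSO libraries. That is 1.18-fold lower (log2 fold change -0.23 ± 0.04, limma Benjamini-Hochberg adjusted p = 0.00119), with no overlap between the groups. Acacb, the carboxylase at the mitochondrial surface whose malonyl-CoA restrains fatty acid entry into mitochondria, was at 15.5, 12.9 and 12.3 RPKM with 611, against 21.6, 18.6 and 19.7 with DMSO. It fell 1.47-fold (log2 fold change -0.53 ± 0.09, limma Benjamini-Hochberg adjusted p = 7.37e-04). Acacb over Acaca was 0.208, 0.183 and 0.181 in 611 libraries, against 0.259, 0.225 and 0.233 in DMSO libraries, so the ratio of the carboxylase genes was lower in each 611 library (exact permutation p = 0.10).

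Fasn carried the highest level of the 9 genes and did not pass the test. It was at 483, 428 and 384 RPKM in 611 replicates 1, 2 and 3, against 521, 470.0 and 479.6 in DMSO replicates 1, 2 and 3, and 611 replicate 1 lay among the DMSO values. The means were 432 ± 49.3 RPKM with 611 and 490.1 ± 27.0 with DMSO (SD, n = 3 each), a log2 fold change of -0.19 with a 95% interval from -0.37 to -0.0044 (limma Benjamini-Hochberg adjusted p = 0.0728). This interval, from the fit without pairing, leaves room for a fall of up to 0.37 on the log2 scale and for next to none. With the replicate block the 95% interval ran from -0.30 to -0.08. Paired by replicate number, the ratio of 611 to DMSO was 0.927, 0.910 and 0.801, lower in 3 of 3 pairs, and with the replicate block Fasn was called lower (limma Benjamini-Hochberg adjusted p = 0.0102), as were 19.5% of all genes. It was also called lower after median-of-ratios scaling (log2 fold change -0.34, limma Benjamini-Hochberg adjusted p = 0.0103), after quantile normalization and without 611 replicate 1 (limma Benjamini-Hochberg adjusted p = 0.00828). Without 611 replicate 3 the log2 fold change was -0.11 (limma Benjamini-Hochberg adjusted p = 0.227). Over all alternatives the limma adjusted p ran from 0.00828 to 0.262.

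Measured against Fasn in the same library, the ratios of Acaca and Acly overlapped between groups. Acly over Fasn was 0.292, 0.332 and 0.334 with 611, against 0.290, 0.331 and 0.328 with DMSO, and Acaca over Fasn was 0.155, 0.165 and 0.177 with 611, against 0.160, 0.176 and 0.176 with DMSO. The log2 ratios differed by 0.01 for Acly and -0.05 for Acaca, 611 minus DMSO (exact permutation p = 0.50 and 0.70). The ratios to Fasn of Acss2, Me1, Acacb, Srebf1 and Thrsp were below those of every DMSO library in each 611 library. The Mlxipl ratio overlapped between groups. In all, 14 ratios were compared, and at 0.14 no p passed after Benjamini-Hochberg adjustment, which 3 libraries a group could not have reached.

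Fasn made up 44.9% to 48.1% of the summed RPKM of the 9 genes in the 611 libraries, against 40.4% to 43.1% in the DMSO libraries. The sum itself was 856 to 1004 RPKM with 611, against 1163 to 1208 with DMSO, with no overlap.

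**Figure D2:**
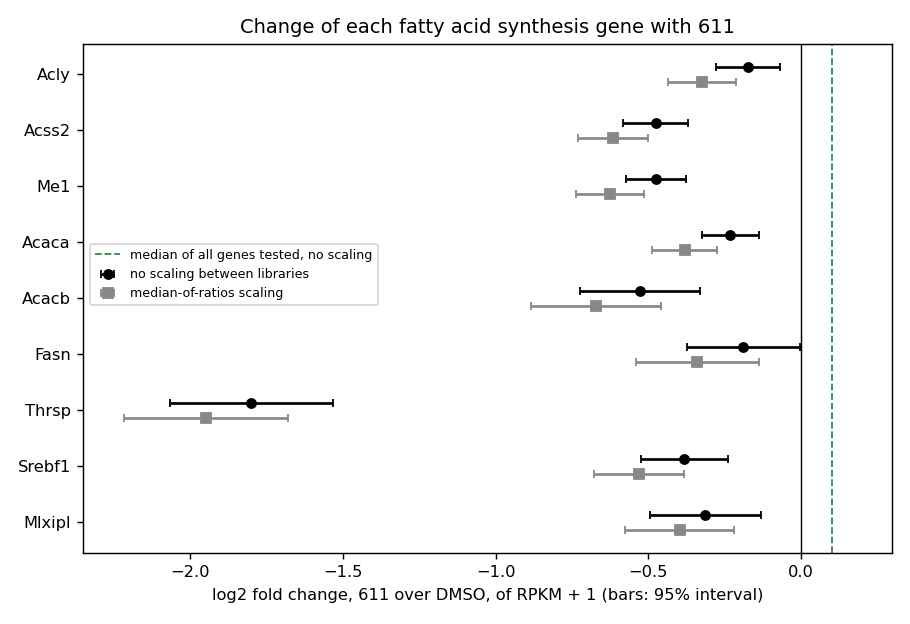
Log2 fold change of 611 over DMSO for each of the 9 genes, with its 95% interval from limma, without scaling (black circles) and with median-of-ratios scaling (grey squares), and a dashed line at the median of all genes tested (0.10). Thrsp (-1.80) stands apart from the other 8 genes, which lie between -0.53 and -0.17 without scaling.

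Thrsp, known as Spot 14, is a small nuclear and cytosolic protein named for its response to thyroid hormone, and it promotes fatty acid synthesis in liver and mammary gland of rodents. It showed the largest change of the 9 genes. Its level was 21.9, 28.2 and 18.7 RPKM in the 611 libraries, against 81.9, 81.5 and 80.4 in the DMSO libraries. The DMSO libraries hardly differed among themselves, and all 3 lay far above the highest 611 library. The fall was 3.54-fold (log2 fold change -1.80 ± 0.12, limma Benjamini-Hochberg adjusted p = 3.8e-06), and of the 13829 genes tested 7 had a more negative log2 fold change. In DMSO cells Thrsp (mean 81.2 RPKM) stood just below Acaca (mean 83.6 RPKM) and above Srebf1, while in 611 cells it stood below Srebf1.

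Its paralog Mid1ip1, which binds acetyl-CoA carboxylase and helps it to polymerise, was not called in either direction. Mid1ip1 was at 34.7, 33.6 and 32.7 RPKM with 611, against 30.6, 33.0 and 29.6 with DMSO, and missed the threshold (log2 fold change 0.11, limma Benjamini-Hochberg adjusted p = 0.0682; -0.03 after median-of-ratios scaling). With the replicate block it was called higher (limma Benjamini-Hochberg adjusted p = 0.031). Thrsp over Mid1ip1 was 0.629, 0.837 and 0.573 in 611 libraries, against 2.68, 2.47 and 2.71 in DMSO libraries. Thrsp thus exceeded its paralog in every DMSO library and fell short of it in every 611 library (exact permutation p = 0.10). T3 acts through the receptors Thra and Thrb. Thrb was lower with 611, at 0.799 ± 0.0885 RPKM with 611 against 2.25 ± 0.308 with DMSO (limma Benjamini-Hochberg adjusted p = 3.31e-05), and the more abundant Thra was higher, at 37.7 ± 1.82 RPKM with 611 against 28.5 ± 1.16 with DMSO (limma Benjamini-Hochberg adjusted p = 1.33e-04).

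The transcription factors of the pathway were lower too. Srebf1, which encodes SREBP-1, was at 47.1, 47.9 and 40.7 RPKM with 611, against 59.7, 61.1 and 56.6 with DMSO. The groups did not overlap, and the fall was 1.31-fold (log2 fold change -0.38 ± 0.06, limma Benjamini-Hochberg adjusted p = 7.65e-04). Srebf1 was measured here as 1 transcript, so the SREBP-1a and SREBP-1c forms, which differ at their first exon, are not separated. Srebf2, whose protein SREBP-2 favours cholesterol synthesis, moved the other way, to 46.2, 48.9 and 44.4 RPKM with 611, against 27.6, 31.0 and 27.7 with DMSO (1.62-fold higher, limma Benjamini-Hochberg adjusted p = 1.33e-05). Srebf1 over Srebf2 was therefore 1.02, 0.979 and 0.918 in 611 libraries, against 2.16, 1.97 and 2.04 in DMSO libraries (exact permutation p = 0.10). The level of the SREBP-1 gene was about that of the SREBP-2 gene with 611, and 2.06 times as high on average with DMSO.

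Mlxipl, which encodes the glucose-sensing factor ChREBP, was the lowest of the 9 genes in both groups. It was at 1.11, 0.997 and 1.03 RPKM with 611, against 1.28, 1.76 and 1.62 with DMSO. The lowest DMSO library came near the highest 611 library without overlap. The ratio of means was 1.48-fold lower and the log2 fold change, which the added 1 shrinks at this level, -0.31 ± 0.08 (limma Benjamini-Hochberg adjusted p = 0.00852). These values rest on an estimated 149 to 165 reads in the 611 libraries and 180 to 253 in the DMSO libraries, while those of Fasn rest on 157920 to 197982 reads in 611 libraries and 187664 to 203286 in DMSO libraries, so counting error weighs more on Mlxipl. Srebf1 over Mlxipl overlapped between groups, at 39.4 to 48.0 with 611 and 34.8 to 46.8 with DMSO (exact permutation p = 0.30).

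**Figure D3:**
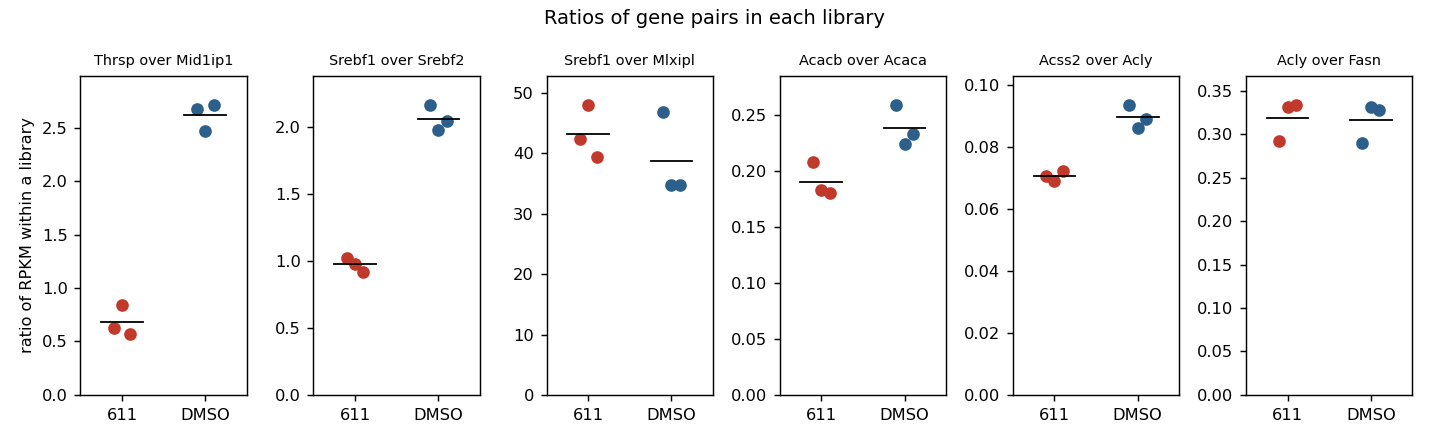
Ratio of the RPKM of 2 genes within each library, for 6 gene pairs, with 611 on the left, DMSO on the right and a line at the mean. Thrsp over Mid1ip1 (0.573 to 0.837 with 611, 2.47 to 2.71 with DMSO) and Srebf1 over Srebf2 (0.918 to 1.02 with 611, 1.97 to 2.16 with DMSO) separate the groups widely, while Acly over Fasn overlaps.

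In order of mean level the genes ran Fasn, Me1, Acly, Acaca, Srebf1, Thrsp, Acacb, Acss2 and Mlxipl in 611 cells, against Fasn, Me1, Acly, Acaca, Thrsp, Srebf1, Acacb, Acss2 and Mlxipl in DMSO cells. No 2 neighbours overlapped in either group. The closest pair was Acaca and Thrsp in DMSO cells, at 82.7 RPKM in the lowest and 81.9 RPKM in the highest library. Among all genes Fasn ranked 86th by mean level with 611 and 65th with DMSO, and Thrsp 2717th with 611 and 701st with DMSO.

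As a pattern over the 6 libraries, the genes nearest to Thrsp among 5385 others with a mean of at least 10 RPKM were Cfd (adipsin), Acaa1b (a peroxisomal thiolase) and Ces1d (a carboxylesterase), at root mean square distances of 0.134, 0.136 and 0.142 on the centred log2(RPKM + 1) scale. Among the nearest to Fasn were the collagen IV chain genes Col4a2 at 0.0426 and Col4a1 at 0.0457. The 6 points of each profile share their groups and replicate numbers.

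Promoter sequence is shown for Thrsp, the gene that moved most, its paralog Mid1ip1, Fasn, and Acss2, an enzyme gene that fell. Fasn did not pass the test with group as the only term, but was called lower with the replicate block. Each window holds 250 bases before the annotated RefSeq start site and 50 after it, on build GRCm38.p6, 5′ to 3′ in the direction of the gene, and capitals mark CCAAT boxes (CCAAT or, on the other strand, ATTGG) and GC boxes (GGGCGG or CCGCCC).
Thrsp promoter (chr7:97417501-97417800, minus strand): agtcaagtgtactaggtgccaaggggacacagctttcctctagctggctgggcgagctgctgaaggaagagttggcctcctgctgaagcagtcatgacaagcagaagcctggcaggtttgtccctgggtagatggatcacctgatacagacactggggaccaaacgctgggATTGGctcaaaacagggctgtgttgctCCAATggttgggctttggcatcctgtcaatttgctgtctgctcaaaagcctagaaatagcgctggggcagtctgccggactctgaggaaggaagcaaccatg
Mid1ip1 promoter (chrX:10717115-10717414, plus strand): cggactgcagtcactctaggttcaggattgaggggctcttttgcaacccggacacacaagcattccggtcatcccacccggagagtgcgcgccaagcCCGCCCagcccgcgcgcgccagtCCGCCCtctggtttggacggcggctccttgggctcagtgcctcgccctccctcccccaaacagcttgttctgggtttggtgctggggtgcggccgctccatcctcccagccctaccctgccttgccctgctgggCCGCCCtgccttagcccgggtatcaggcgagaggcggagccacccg
Fasn promoter (chr11:120824498-120824797, minus strand): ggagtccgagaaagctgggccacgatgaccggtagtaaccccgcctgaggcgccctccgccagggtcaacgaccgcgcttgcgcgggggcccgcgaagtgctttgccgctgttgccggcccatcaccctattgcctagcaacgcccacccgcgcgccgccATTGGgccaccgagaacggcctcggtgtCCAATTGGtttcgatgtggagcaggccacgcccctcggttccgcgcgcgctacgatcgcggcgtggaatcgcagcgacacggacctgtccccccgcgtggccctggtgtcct
Acss2 promoter (chr2:155517793-155518092, plus strand): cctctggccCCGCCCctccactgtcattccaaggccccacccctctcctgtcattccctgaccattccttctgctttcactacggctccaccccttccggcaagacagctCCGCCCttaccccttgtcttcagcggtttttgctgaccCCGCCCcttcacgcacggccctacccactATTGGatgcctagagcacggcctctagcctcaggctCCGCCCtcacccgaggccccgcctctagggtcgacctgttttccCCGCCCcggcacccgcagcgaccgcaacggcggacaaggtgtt

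CCAAT boxes bind NF-Y, which acts beside SREBP at lipogenic promoters. The 9 genes had 13 windows in the RefSeq table, and CCAAT on either strand was in 9 of these windows, against 37.4% of all 32851 windows. By gene it was at 8 of the 9. Shares over all windows, here and below, count windows, and no share over all genes was computed. A gene with several windows has more chances of a match. Thrsp held 2 matches, from -79 to -75 and from -52 to -48, Fasn held 3, 2 of which overlap, and Acss2 held 1. Mid1ip1 held none. The GC box GGGCGG, a site type of Sp1, was in 6 of the 13 windows, at 5 genes, with 5 matches at Acss2 and none at Thrsp and Fasn, against 35.7% of all windows. The full sterol regulatory element consensus was in none of the 13 and in 0.0913% of all windows, and its shorter form TCACNCCAC, which it contains, was in 1, at Mlxipl, against 1.24%. The E-box CACGTG, read by ChREBP and USF factors, was in 1 window, also at Mlxipl, against 7.15%. The looser CANNTG, which includes it and overlaps a CCAAT match at Fasn, was in 10 of 13 windows, against 72.3%. A perfect ChREBP element (CACGTG repeated after 5 bases) and a perfect LXR element (AGGTCA repeated after 4 bases) were in none of the 13, and in 0 and 5 of all windows. Both strands were searched for each motif. A match is a run of letters and not a shown site, and elements outside these windows or with other letters were not searched. The NF-Y genes Nfya and Nfyb were higher with 611 (1.25-fold and 1.31-fold, limma Benjamini-Hochberg adjusted p = 3.94e-04 and 0.00242), though Nfyb lost its call under quantile normalization, and Nfyc missed the threshold, at 15.1 ± 0.448 RPKM with 611 and 14.8 ± 0.0115 with DMSO (limma Benjamini-Hochberg adjusted p = 0.605), but was called lower after median-of-ratios scaling (log2 fold change -0.12, limma Benjamini-Hochberg adjusted p = 0.0329).

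Around the pathway, 98 genes of 10 further lists could be tested, of which 58 were lower, 19 higher and 21 not called. Of all genes tested, 17.7% were called lower and 41.6% higher. After median-of-ratios scaling 69 of the listed genes were lower and 11 higher, beside 28.6% and 28.5% of all genes. These shares stand beside the counts of each list below as well.

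Citrate and NADPH supply fell nearly throughout. Of 11 tested genes 10 were lower and 1 higher, also after median-of-ratios scaling, with a median log2 fold change of -0.40. Slc25a1, the carrier that exports citrate from mitochondria, fell 1.76-fold to 180.3 ± 15.2 RPKM with 611, against 318 ± 14.3 with DMSO (SD, n = 3 each, limma Benjamini-Hochberg adjusted p = 9.37e-06). Pcx, pyruvate carboxylase, which replaces the oxaloacetate that citrate export drains, fell 1.64-fold, and Mdh1, the cytosolic malate dehydrogenase that hands malate to Me1, fell 1.67-fold (limma Benjamini-Hochberg adjusted p = 1.44e-05 and 1.92e-06). Me2, the mitochondrial malic enzyme, was 1.49-fold higher, at 11.8 ± 0.324 RPKM with 611, against 7.92 ± 0.314 with DMSO (limma Benjamini-Hochberg adjusted p = 2.58e-05). The oxidative pentose phosphate genes Pgd and G6pdx were 1.32-fold and 1.13-fold lower (limma Benjamini-Hochberg adjusted p = 1.94e-04 and 0.0225), the second not under quantile normalization.

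Cofactor genes fell as well. The carboxylases carry biotin, and Fasn carries phosphopantetheine, which comes from CoA. Of 9 tested genes 7 were lower and 0 higher (8 and 0 after scaling), with a median of -0.18. Pank1, a pantothenate kinase that starts CoA synthesis, fell 1.68-fold to 9.0 ± 0.439 RPKM with 611, against 15.1 ± 1.21 with DMSO (limma Benjamini-Hochberg adjusted p = 2.65e-05). The far more abundant Pank3 fell less, 1.26-fold to 194 ± 10.0 RPKM with 611, against 244 ± 9.86 with DMSO. Pank2 fell 1.12-fold (limma Benjamini-Hochberg adjusted p = 4.37e-04 for Pank3 and 0.00706 for Pank2). Ppcs, of the next step, fell 1.67-fold, and Slc5a6, the transporter of biotin and pantothenate, fell 1.30-fold (limma Benjamini-Hochberg adjusted p = 4.04e-06 and 0.00168). Hlcs, the ligase that attaches biotin to the carboxylases, did not pass the test, at 3.64 ± 0.238 RPKM with 611 and 3.34 ± 0.102 with DMSO (log2 fold change 0.10, limma Benjamini-Hochberg adjusted p = 0.206). Its direction turned under both other scalings, and quantile normalization called it lower (log2 fold change -0.16, limma Benjamini-Hochberg adjusted p = 0.0397).

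Genes that process or regulate SREBP-1 did not share a direction. Of 16 tested 7 were higher and 3 lower, and after scaling 4 were higher and 8 lower. Among the higher were Mbtps1 and Mbtps2, by 1.21-fold and 1.18-fold (limma Benjamini-Hochberg adjusted p = 6.29e-04 and 0.00971). Mbtps1 kept its call under both other scalings. Mbtps2 lost it after median-of-ratios scaling (log2 fold change 0.07) and after quantile normalization (-0.04). Insig1, which holds SREBP in the endoplasmic reticulum and is itself an SREBP target, fell 1.5-fold to 356 ± 18.1 RPKM with 611, against 532 ± 7.6 with DMSO. Nr1h3, the LXR-alpha gene whose product activates Srebf1, fell 1.81-fold to 25.5 ± 0.152 RPKM with 611, against 46.1 ± 1.62 with DMSO. Lpin1, a phosphatidate phosphatase whose nuclear form restrains SREBP in mouse liver, fell 2.07-fold to 30.1 ± 1.6 RPKM with 611, against 62.4 ± 1.61 with DMSO. The limma Benjamini-Hochberg adjusted p-values of these 3 falls were 1.20e-05, 7.83e-07 and 6.96e-07. Scap, the escort of SREBP, missed the threshold (11.6 ± 0.296 RPKM with 611, 10.7 ± 0.108 with DMSO, limma Benjamini-Hochberg adjusted p = 0.0572), but was called higher with the replicate block (limma Benjamini-Hochberg adjusted p = 0.0453). Its log2 fold change turned from 0.11 to -0.03 after median-of-ratios scaling and -0.04 after quantile normalization, with no call under either.

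Genes of ChREBP partners and glucose handling showed the largest falls around the pathway by median, -0.64, with 7 of 9 tested genes lower and 0 higher (8 and 0 after scaling). Mlx, the obligate partner of ChREBP, fell 1.27-fold to 27.2 ± 1.1 RPKM with 611, against 34.6 ± 0.804 with DMSO (limma Benjamini-Hochberg adjusted p = 1.39e-04). Gpd1, which draws glycerol phosphate from glycolysis, fell 2.28-fold to 1087 ± 154 RPKM with 611, against 2480.0 ± 176 with DMSO (limma Benjamini-Hochberg adjusted p = 1.47e-05). The hexokinase gene Hk2 fell 2.14-fold and the glucose transporter gene Slc2a1 fell 2.24-fold (limma Benjamini-Hochberg adjusted p = 1.61e-06 and 1.41e-05). Pklr, a ChREBP target of liver, was below the filter, with reads in 1 DMSO library.

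Regulators of acetyl-CoA carboxylase were mixed, with 6 of 12 lower and 1 higher (8 and 0 after scaling, 6 and 2 with the replicate block). Prkab2, a beta subunit of the AMP-activated kinase that switches the carboxylases off, fell 2.65-fold to 3.52 ± 0.0509 RPKM with 611, against 9.33 ± 0.498 with DMSO (limma Benjamini-Hochberg adjusted p = 8.05e-07). Its sister Prkab1 missed the threshold, at 8.77 ± 0.347 RPKM with 611 and 8.18 ± 0.749 with DMSO (log2 fold change 0.09, limma Benjamini-Hochberg adjusted p = 0.262; -0.04 after median-of-ratios scaling). Mlycd, which degrades malonyl-CoA, fell 1.52-fold to 38.7 ± 3.66 RPKM with 611, against 58.9 ± 2.45 with DMSO, and Trib3, which in mouse fat leads the carboxylase to its degradation with Cop1, fell 2.60-fold to 4.15 ± 1.07 RPKM with 611, against 10.8 ± 2.53 with DMSO (limma Benjamini-Hochberg adjusted p = 6.67e-05 and 4.58e-04). The kinase subunit gene Prkaa1 was 1.21-fold higher (limma Benjamini-Hochberg adjusted p = 0.00229), a call that ended after median-of-ratios scaling.

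Of the acetyl-CoA and related synthetases 4 of 4 tested genes fell. Acss3, a mitochondrial relative of Acss2, fell 1.60-fold to 5.06 ± 1.15 RPKM with 611, against 8.09 ± 1.14 with DMSO, and Acsf2, a medium-chain acyl-CoA synthetase, fell 2.53-fold (limma Benjamini-Hochberg adjusted p = 0.00516 and 3.88e-06). Acss1 was below the filter, and Hmgcs1 was listed at 0 in all libraries. Mitochondria have a fatty acid synthesis of their own that feeds lipoic acid, and there 8 of 8 tested genes fell, with a median of -0.43. Mecr, its reductase, was 1.41-fold lower and Mcat, which loads malonyl groups, 1.4-fold lower (limma Benjamini-Hochberg adjusted p = 4.69e-05 and 1.36e-04).

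Elongation and desaturation genes gave no common direction, with 3 of 8 higher and 2 lower. After scaling 3 were lower and 1 higher, and with the replicate block 2 were lower and 5 higher. Fads1 and Fads2 were 1.17-fold and 1.15-fold higher and Elovl3 1.98-fold lower (limma Benjamini-Hochberg adjusted p = 0.00138, 0.0114 and 8.69e-06). The calls of Fads1 and Fads2 ended after median-of-ratios scaling. Elovl6, which extends palmitate and is a known SREBP-1 target in mouse liver, was at 13.3, 15.9 and 16.0 RPKM with 611, against 6.58, 6.48 and 6.83 with DMSO, while Scd1, the desaturase gene also under SREBP-1 there, was at 1550.4, 1502 and 1327 RPKM with 611, against 3101, 2832 and 2856 with DMSO. Elovl6 rose 2.27-fold and Scd1 fell 2.01-fold (limma Benjamini-Hochberg adjusted p = 3.91e-06 and 7.86e-06). Elovl6 over Scd1 was thus 4.55 times as high with 611 (exact permutation p = 0.10).

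SREBP-2 targets were mixed beside the higher Srebf2, with 4 of 10 higher and 4 lower (2 and 4 after scaling). Sqle and Stard4 were 1.26-fold and 1.31-fold higher and Cyp51 1.30-fold lower (limma Benjamini-Hochberg adjusted p = 7.82e-05, 1.22e-04 and 5.56e-04). In the list of thyroid hormone and insulin signalling 7 of 11 genes were lower and 3 higher (8 and 3 after scaling). The insulin receptor gene Insr fell 1.38-fold to 18.8 ± 0.665 RPKM with 611, against 26.0 ± 0.798 with DMSO, and Irs2 fell 1.36-fold. Irs1 and Akt1 were 1.41-fold and 1.52-fold higher (limma Benjamini-Hochberg adjusted p between 4.23e-06 and 2.66e-04 for these 4 genes). Akt2, more abundant than Akt1, was 1.22-fold lower, at 88.0 ± 4.07 RPKM with 611 against 107 ± 2.27 with DMSO (limma Benjamini-Hochberg adjusted p = 4.63e-04).

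**Figure D4:**
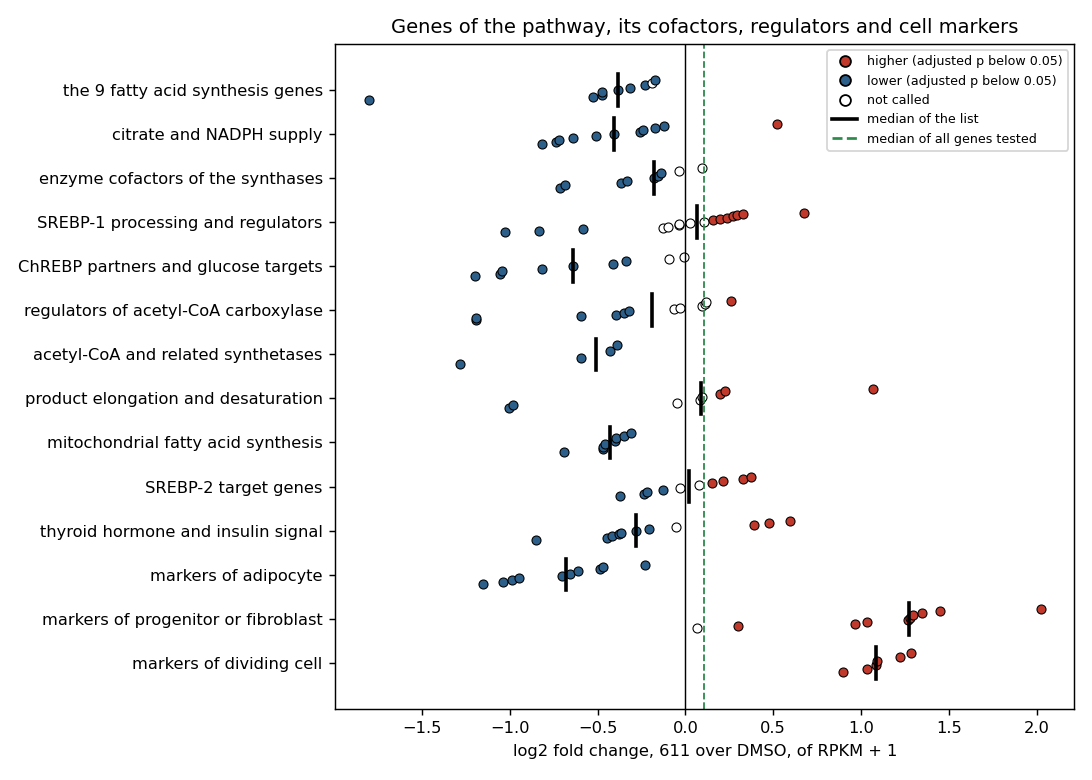
Log2 fold change of 611 over DMSO for each tested gene of the 9-gene set, of 10 lists around the pathway and of 3 marker lists, coloured by its call, with the list's median as a bar and the median of all genes tested (0.10) as a dashed line. The median of the 9 genes (-0.38) lies to the right of that of the adipocyte markers (-0.68) and to the left of the dashed line. The 2 sets overlap, and Thrsp (-1.80) lies to the left of every adipocyte marker, the lowest of which is Cd36 (-1.15).

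Beside the adipocyte markers, whose median was -0.68, the 9 genes had a smaller median change, and Acly, Fasn and Acaca the smallest among them. Shares of all tested genes with a more negative log2 fold change were 17.0% for Acly, 16.0% for Fasn and 13.4% for Acaca, and 3.72% for Acacb, 4.70% for Acss2 and 4.74% for Me1. Srebf1 stood at 7.40% and Mlxipl at 9.80%. These shares rest on log2(RPKM + 1), where the added 1 shrinks the change of Mlxipl. By the ratio of means Mlxipl fell 1.48-fold, against 1.31-fold for Srebf1 and 1.47-fold for Acacb. Among the adipocyte markers Lpl and Cidec fell 2.05-fold and 1.98-fold in the same libraries, and Cebpa fell 1.17-fold.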

How the data were processed

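Messenger RNA of 6 cultures was sequenced. Per the labels' protocols, TRIzol RNA went into stranded mRNA libraries. The mouse build mm9 and the tools SAMtools, TopHat and TopHat2 (2.0.12) are named by the submitters' processing notes. The authors deposited RPKM values for 28430 RefSeq transcripts per library, and neither the program that computed them nor its use of strand is named, so reads of overlapping genes cannot be told apart.

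Symbols of 27789 transcripts came from a RefSeq table of GRCm38.p6, used for names and promoter sequences only. Transcripts of 1 gene share reads, so 1 stood for each gene. Values were tested with limma 3.58.1 in R 4.3.3 with trend on log2(RPKM + 1), group as the only term, with Benjamini-Hochberg adjustment over 13829 genes and a threshold of 0.05. Library totals were found as the numbers that bring the low values, times GENCODE M21 transcript lengths, closest to whole reads (63.9% to 65.9% lay within 0.05 of one). Read estimates rest on those lengths and cover counting error only. Libraries were kept as separate samples. Ratios within libraries were compared by exact two-sided permutation.

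Same-numbered libraries deviated together from their group means, with correlations across genes of 0.296, 0.298 and 0.177 for numbers 1, 2 and 3. The sample titles give replicate numbers and name no pairing, and what same-numbered libraries share was not tested. The calls rest on the fit with group as the only term, and the replicate block is an alternative to it. All 9 genes were named whatever their values. From each list, up to 3 called genes per direction with the largest changes were eligible where the higher group averaged 1 RPKM or more, with the genes of the ratios, and 1 gene near Fasn in pattern is not reported here. Further genes named for what they encode, such as Hlcs, Scap, Mbtps1, Mbtps2, Pank2, Pank3, Akt2, Prkab1, Nfyc, Mlx, Mcat, Pgd, G6pdx and Cebpa, were chosen after their values were seen. The members and lists were chosen with earlier results of these data known.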

Additional observations from a re-analysis of the deposited data

How the results depend on the processing

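Of the 9 genes, 7 kept their direction and their side of the threshold in all 15 alternatives (other pseudocounts, filters, scalings, variance model, summed transcripts, replicate block and each library left out). Acly changed side in 1 of 15, quantile normalization, and Fasn in 4 of 15. With the replicate block 9 of the 9 genes were lower, and it changed no other call among them. Leaving out a library gave 8 to 9 lower and 0 higher. Over all genes, median-of-ratios scaling raised the lower calls from 2451 to 3959, and quantile normalization gave 3652 higher, against 5758 without it, and 4282 lower. The 10 lists around the pathway had 11 higher after median-of-ratios scaling, against 19. Of the ratios, 2 turned direction when a library was left out: Acaca over Fasn ran from -0.0946 to 0.00306 on the log2 scale, with -0.05 over all libraries, and Acly over Fasn from -0.0490 to 0.0755, with 0.01 over all libraries. These stayed within the spread between replicates. The causes were not tested. Paired by replicate number, a sign-flip test of 3 pairs cannot go below 0.25, which 12 of the 14 ratios reached. Depth limits Mlxipl most, and Pklr and Acss1 lay too low to test.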
